A study of Rattus norvegicus with 12 samples.

Results

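Erg, Fli1, Ets1, Sox7, Sox17, Sox18, Gata2, Nr2f2 and Foxf1 are transcription factors of the endothelial lineage, and their RNA was followed in rat lung tissue and in isolated lung endothelial cells. They were chosen by gene symbol, and each had a row of its own, which gave 9 of the 19230 rows of the table. The study had 12 libraries in 4 groups of 3, from Sprague-Dawley rats. Ahr-KO SuHx lung was total lung of rats lacking the aryl hydrocarbon receptor (labelled Ahr-KO), taken at day 4 of SuHx. WT SuHx lung was total lung of wild-type rats at the same day 4. The ECs were wild-type endothelial cells kept in normoxia; their labels give day 4 while their column names give day 0. Normoxia lung was total lung of wild-type rats at day 0. SuHx combines SU5416, an inhibitor of VEGF receptors, with low oxygen, and is used in rats as a model of pulmonary arterial hypertension; Ahr is a ligand-activated transcription factor, and the comparison of genotypes asks what it contributes to the response. There was no Ahr-KO lung in normoxia and no lung given SU5416 or hypoxia alone, so the effect of genotype without SuHx and the share of each treatment cannot be told apart. The labels do not say how the ECs were isolated, whether they were cultured or how the knockout was made, and nothing says that replicates came from separate animals, so each p-value measures the spread between these libraries.

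As background, the 9 factors belong to 5 families. Erg, Fli1 and Ets1 are ETS factors, which bind a GGAA core found in most endothelial enhancers; Erg and Fli1 maintain the identity of mature endothelium, and Ets1 is used by endothelium and also by lymphocytes. Sox7, Sox17 and Sox18 form the SOXF group, which acts in arterial and lymphatic specification; variants of human SOX17 are linked to pulmonary arterial hypertension. Gata2 is a zinc finger factor of endothelium and of blood progenitors and mast cells. Nr2f2, also called COUP-TFII, sets venous and lymphatic identity and is made by mesenchymal cells as well. Foxf1 is a forkhead factor of lung mesenchyme and lung capillaries, and human FOXF1 is mutated in alveolar capillary dysplasia.

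The values are the deposited signal, in which each library's estimated reads appear scaled by a constant of its own, and libraries are named here by the number that ends their column, 0 to 2. Library totals ran between 20567809 and 27052927 signal units, and 1 read was worth 0.745 to 1.25 units. No gene lengths enter the values, so levels are compared between groups and not between genes. The Ahr row held 2515, 2523 and 1800.0 signal units in Ahr-KO SuHx lung, against 1996, 3073 and 1739.6 in WT SuHx lung; it sums reads over the whole gene and does not check a deletion of a part of it. Cyp1a1, the classical Ahr target, lay between 3.87 and 5.32 in Ahr-KO SuHx lung, against 65459 to 75070.5 in WT SuHx lung, so the labels and this gene go together. The summed signal of 9 cardiac muscle markers was 7155, 5701 and 26025 in Ahr-KO SuHx lung and 3483, 2896 and 2626 in WT SuHx lung, against 1626, 834 and 11954 in normoxia lung, so it was higher in every Ahr-KO library than in any WT SuHx library and highest in Ahr-KO library 2 and normoxia library 2. The calls in lung are given below with and without those 2 libraries.

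In WT lung at day 4 of SuHx, 5 of the 9 factors had fallen and 0 had risen against normoxia lung. Gata2 and the 3 SOXF factors Sox7, Sox17 and Sox18 fell, and so did Erg, by between 1.58-fold and 2.31-fold. Foxf1 was 1.45-fold lower without passing the test, and Fli1, Ets1 and Nr2f2, which did not pass it either, had overlapping groups. The test was limma on log2(signal + 1) over the 9 lung libraries, and a gene counts as risen or fallen when its Benjamini-Hochberg adjusted p over all 15234 tested rows is under 0.05. Of all tested rows 13.5% were called, 6.39% as lower and 7.08% as higher. The median log2 fold change was -0.66 over the 9 factors and -0.04 over all rows. In bulk tissue, fewer endothelial cells and less RNA per cell cannot be told apart.

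**Figure D1:**
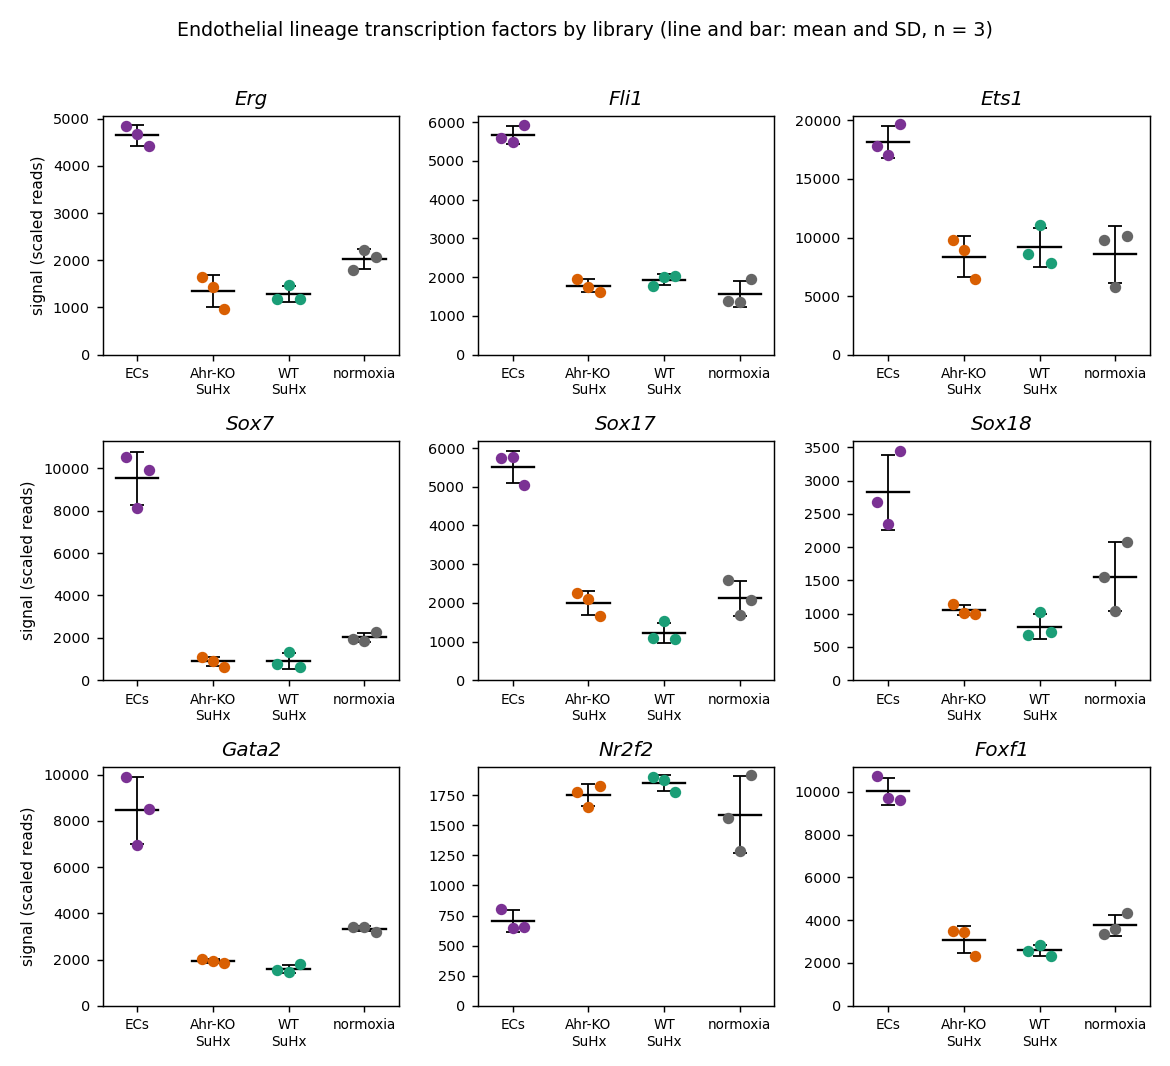
Deposited signal (y axis, linear, each panel with its own range) of each of the 9 factors in ECs, Ahr-KO SuHx lung, WT SuHx lung and normoxia lung; points are the 3 libraries of a group, lines their mean and error bars the SD. ECs lie above all lung groups for every factor except Nr2f2, where they lie below, and Gata2 and Sox7 lie lower in both SuHx groups than in normoxia lung.

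Of the 3 ETS members, Erg fell and the other 2 did not pass. Erg held 1188, 1479.6 and 1185 signal units in WT SuHx lung, against 1799.5, 2209 and 2078 in normoxia lung. The groups did not overlap, and the log2 fold change was -0.66 ± 0.18 (SE, adjusted p = 0.0439). Fli1 held 1776, 1993 and 2026 in WT SuHx lung, against 1375, 1369 and 1956 in normoxia lung. The WT SuHx libraries were higher on average, but normoxia library 2 lay among them, and the difference of 0.32 ± 0.14 did not pass (adjusted p = 0.162). Ets1 averaged 9159 ± 1681 in WT SuHx lung and 8567 ± 2413 in normoxia lung (SD, n = 3 each). Its spread within each group was wider than its log2 difference of 0.12 ± 0.24 (adjusted p = 0.752).

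All 3 SOXF members fell. Sox7 held 783, 1328 and 631 signal units in WT SuHx lung, against 1960.2, 1840.1 and 2252 in normoxia lung. It showed the largest fold change of the 9, a log2 fold change of -1.21 ± 0.27 (adjusted p = 0.0203), and WT SuHx library 1 lay well above the other 2 of its group. Sox17 held 1095, 1519 and 1063 in WT SuHx lung, against 2593, 1691 and 2061 in normoxia lung, a change of -0.78 ± 0.19 (adjusted p = 0.0279). The highest WT SuHx library and the lowest normoxia library were close to each other. Sox18 held 673, 1022 and 720.1 in WT SuHx lung, against 1543, 1038 and 2074 in normoxia lung, a change of -0.91 ± 0.24 (adjusted p = 0.0345). Its groups were parted by the gap between 1022 and 1038 signal units, the narrowest of the factors that were called.

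Gata2 had the smallest standard error of the 9 in this comparison. It held 1554, 1444 and 1799 signal units in WT SuHx lung, against 3390.3, 3402 and 3205 in normoxia lung. Every WT SuHx library was far below every normoxia library, and the log2 fold change was -1.06 ± 0.09 (adjusted p = 0.000344). Kit, a receptor that mast cells and endothelium share, fell as well, by 1.04 on the log2 scale (adjusted p = 0.0146). The other 6 mast cell markers summed to 735 to 824 signal units in WT SuHx lung and 651 to 793 in normoxia lung, ranges that overlap. The part of mast cells in the level of Gata2 was not tested. Nr2f2 held 1902, 1877 and 1777 in WT SuHx lung, against 1562, 1284 and 1921 in normoxia lung, a difference of 0.24 ± 0.13 that did not pass (adjusted p = 0.241). Foxf1 held 2567, 2838 and 2343 in WT SuHx lung, against 3352, 3591 and 4314 in normoxia lung. Its groups did not overlap, but the change of -0.53 ± 0.17 missed the threshold (adjusted p = 0.0604). Groups that do not overlap, with WT SuHx lower, were seen for 6 of the 9 factors and for 19.7% of all tested rows.

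The calls depended on single libraries. Without normoxia library 0, WT SuHx library 0 or WT SuHx library 2, 1 factor was called each time, Gata2, and without Ahr-KO library 1 there were 3; the log2 changes of the 5 kept their sign, and without a mean-variance trend in limma 2 were called, Gata2 and Sox7. With normoxia 2 and Ahr-KO 2, the libraries richest in cardiac RNA, both left out, 7 were called: Fli1 at 0.49 (adjusted p = 0.0178) and Nr2f2 at 0.39 (adjusted p = 0.0471) as higher, Foxf1 at -0.43 (adjusted p = 0.0310) as lower, and Sox18 at -0.68 (adjusted p = 0.0729) no longer.

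The sequences just upstream of Gata2 and Erg are shown because both factors fell in WT SuHx lung and because ETS and GATA factors are known to bind the regulatory DNA of endothelial genes. They are the 250 bases before the start site in RefSeq (rat build GRCr8, which is not the build rn6 named in the submitters' processing notes), 5′ to 3′ on the strand of the gene; a RefSeq promoter was matched for 2 of the 9 members. Both start sites lie inside the annotated span of their gene, so they may stand for an internal start. Capitals mark the ETS core GGAA and its reverse complement TTCC, and GATA with its reverse complement TATC; the 2 kinds of match share no base. The Gata2 stretch is chr4:122216031-122216280 on the plus strand, and the Erg stretch is chr11:48251567-48251816 on the minus strand.
Gata2: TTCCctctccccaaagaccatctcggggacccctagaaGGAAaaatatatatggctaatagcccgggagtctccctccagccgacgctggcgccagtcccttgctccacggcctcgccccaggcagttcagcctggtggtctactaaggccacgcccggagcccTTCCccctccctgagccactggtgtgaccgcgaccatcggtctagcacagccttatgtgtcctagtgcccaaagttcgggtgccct
Erg: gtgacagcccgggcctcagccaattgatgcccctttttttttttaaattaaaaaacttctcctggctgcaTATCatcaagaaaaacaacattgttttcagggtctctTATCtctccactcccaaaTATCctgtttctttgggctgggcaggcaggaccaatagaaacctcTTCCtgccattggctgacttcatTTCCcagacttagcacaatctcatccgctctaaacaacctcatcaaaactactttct
Gata2 held 3 matches to the ETS core and 0 to GATA, and Erg held 2 to the ETS core and 3 to GATA. Of 33360 distinct rat promoter windows of this length, 93.3% held the ETS core on either strand and 55.8% held GATA. The SOX word ACAAT (reverse complement ATTGT) occurred 2 times upstream of Erg and 0 times upstream of Gata2, and in 30.0% of all windows. The forkhead word TAAACA (reverse complement TGTTTA) occurred 1 time upstream of Erg and 0 times upstream of Gata2, and in 12.2% of windows. The Ahr core GCGTG (reverse complement CACGC) occurred 1 time upstream of Gata2 and 0 times upstream of Erg, and in 25.9% of windows. A match is a run of letters and not a measured site.

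Beside 6.39% of all tested rows called lower and 7.08% called higher by limma, 1 of 10 pan-endothelial markers fell and 0 rose in WT SuHx lung. Their mean log2(signal + 1) was 12.27 ± 0.05 in WT SuHx lung and 12.22 ± 0.11 in normoxia lung (SD, n = 3 each), a difference of 0.04. The marker that fell was Tek, the angiopoietin receptor, which was 2.00-fold lower (adjusted p = 0.00681). For Robo4 the count used its own row, while the mean used the sum of its rows. Its own row held only 48.2, 0.765 and 2.23 signal units in WT SuHx lung. The merged Robo4 row, with most of its reads, held 587, 554 and 762 signal units in WT SuHx lung, against 384, 319 and 391 in normoxia lung. The merged row was higher in every WT SuHx library but did not enter the count. The 0 that rose, and the count of the ETS or SOXF list below, therefore rest on the row used for Robo4. With normoxia 2 and Ahr-KO 2 left out, limma called Ecscr as higher (0.44, adjusted p = 0.0377) and Tek still as lower. Set against the marker mean of the same library, 6 factors were lower in every WT SuHx library than in any normoxia library, as were 17.6% of all tested rows on that scale. Their differences were -1.25 for Sox7, -1.11 for Gata2, -0.96 for Sox18, -0.83 for Sox17, -0.71 for Erg and -0.58 for Foxf1, each with an exact two-sided permutation p of 0.1, the smallest that 3 against 3 libraries allow. The markers are themselves regulated genes, so this scale is a description and not a count of cells. Cdh5, Tie1, Tek, Egfl7 and Robo4 among them are also in the list of endothelial genes with ETS or SOXF control below. The marker scale and that list are therefore not separate, and Tek was counted as fallen in both. Mesenchymal and pericyte markers summed to 127939 to 172101 signal units in WT SuHx lung and 81287 to 105179 in normoxia lung, and 3 of those 12 rose and 1 fell; their part in the levels of Nr2f2 and Foxf1 was not tested.

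**Figure D2:**
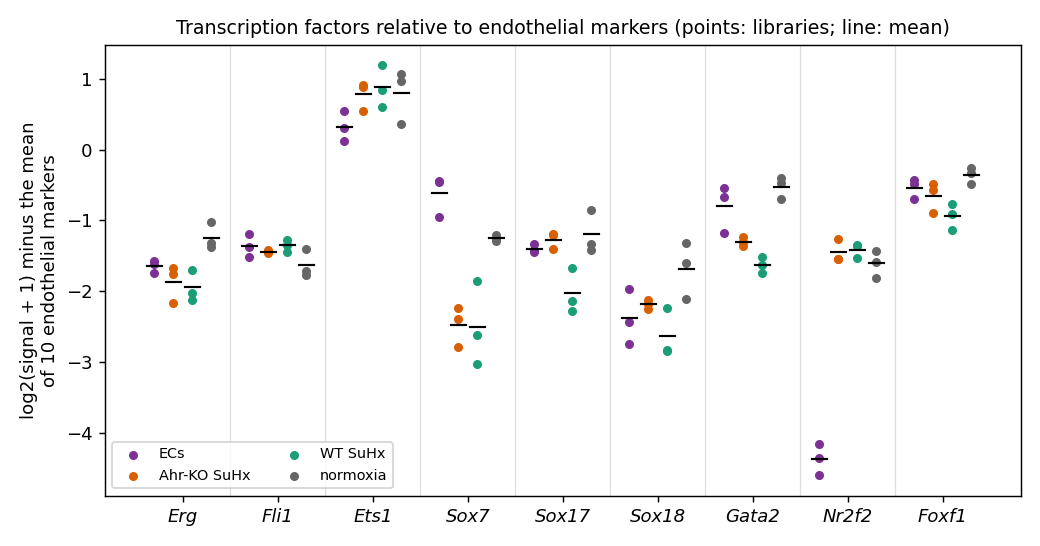
Each factor on the log2 scale minus the mean of 10 pan-endothelial markers of the same library (y axis), with points for the 3 libraries of a group and lines at the mean, for ECs, Ahr-KO SuHx, WT SuHx and normoxia lung. Gata2 and Sox7 lie lower in both SuHx groups than in normoxia lung, by 1.11 and 1.25 in WT SuHx lung, and Sox17 lies 0.83 lower in WT SuHx lung, with Ahr-KO and normoxia libraries that overlap.

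Relatives of the 9 factors were counted from lists by limma, beside 6.39% of all tested rows called lower and 7.08% called higher. In lists this short, 1 or 2 calls say little about a family. Of 14 other ETS factors tested, 0 rose and 3 fell: Etv5 at -1.03, Etv1 at -0.63 and Elf4 at -0.60. Their median of -0.28 stands beside -0.04 for all rows. Of 6 ETS factors of epithelium and blood, 1 rose, Elf5 at 0.59, and 1 fell, Ehf at -0.85, both of them factors of epithelium. Of 10 SOX factors outside the SOXF group, 0 were called in either direction by limma and 2 had an unadjusted p under 0.05; Sox4 at -0.39 and Sox13 at -0.24 had the highest signal. Of 10 other GATA factors and GATA partners tested, 0 rose and 2 fell, Gata6 at -0.54 and the GATA cofactor Zfpm1 at -0.41. Of 10 FOX and lung mesenchyme factors, 0 rose and 2 fell, Foxo1 at -0.74 and Foxp2 at -0.59. Of 12 further endothelial transcription factors, 1 rose, Bcl6b at 0.92, whose row is merged with another gene, and 2 fell, Epas1 at -0.87, a hypoxia-inducible factor, and Mecom at -0.66.

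Genes that ETS or SOXF factors are known to control in mouse or human were counted too. The shares of all tested rows were again 6.39% called lower and 7.08% called higher, for these and the lists that follow. Of 22 such endothelial genes, 1 rose and 11 fell, with a median of -0.48. Dll4, the arterial Notch ligand, held 385, 424 and 344 signal units in WT SuHx lung, against 4269, 3278 and 3986 in normoxia lung. Its libraries were parted widely, by -3.31 ± 0.16 on the log2 scale (adjusted p = 1.96e-05). Clec14a, an endothelial surface lectin, fell by 1.52 and Eng, a TGF-beta coreceptor, by 1.23, while Emcn, a sialomucin of capillaries and veins, rose by 1.05. In the list of arterial, venous and lymphatic factors around Nr2f2, 1 of 11 rose, Heyl at 0.60, and 3 fell, among them Hey2 at -1.05. In ECs, Heyl was lower than in normoxia lung, at -2.57 (limma, adjusted p = 0.000105), while 8 of the 11 were higher there and 2 lower. Efnb2, the arterial ephrin, held 1228, 1239.5 and 1162 in WT SuHx lung, against 5794, 5582 and 7492 in normoxia lung (-2.37 ± 0.19, adjusted p = 0.000283). Hey1, a Notch target of arterial endothelium, held 106, 106 and 86.4 in WT SuHx lung, against 333, 495 and 412 in normoxia lung (-2.03 ± 0.22, adjusted p = 0.000678). These lists were drawn up with earlier results of the same data known, so their direction is not independent evidence. Of the lists for other cell types, 2 of 10 alveolar markers fell (Rtkn2 at -1.07 and Slc34a2 at -0.70), as did 1 of 7 airway markers (Sec14l3 at -1.23) and 1 of 7 lymphatic markers (Lyve1 at -1.38, in a merged row). Of 7 megakaryocyte markers 1 rose, Gp1bb at 0.91 in a merged row. By limma, 0 of 12 T and NK cell, 0 of 6 B cell and 0 of 9 cardiac markers were called; 0 of them had an unadjusted p under 0.05. Without normoxia 2 and Ahr-KO 2, 10 of the 22 endothelial genes, 2 of the 11 arterial, venous and lymphatic genes, 1 of the 10 GATA factors and partners and 4 of the 10 alveolar markers fell. In that fit 2 of 8 cardiac markers tested rose.

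Some pairs of family members changed their ratio to each other, and others did not. Between WT SuHx and normoxia lung, the ranges overlapped for Sox17 to Sox18, Sox18 to Sox7 and Fli1 to Ets1. Those of Ets1 to Erg did not, at 6.59 to 7.46 in WT SuHx lung, against 2.62 to 5.45 in normoxia lung. The Fli1 to Erg ratio within a library ranged over 1.15 to 1.34 in ECs, 1.19 to 1.66 in Ahr-KO SuHx lung and 1.35 to 1.71 in WT SuHx lung, against 0.620 to 0.941 in normoxia lung. The Sox17 to Sox7 ratio ranged over 0.509 to 0.710 in ECs, 2.04 to 2.62 in Ahr-KO SuHx lung and 1.14 to 1.68 in WT SuHx lung, against 0.915 to 1.32 in normoxia lung. The Fli1 to Erg ratio was higher in every library of the other 3 groups than in any normoxia library. The Sox17 to Sox7 ratio was highest in Ahr-KO SuHx lung, and its ranges in WT SuHx and normoxia lung overlapped. The pairs Fli1 to Erg and Sox17 to Sox7 were picked after their values were seen, so no test is given. Since gene length is not accounted for, a ratio of 1 has no meaning of its own. Without normoxia 2 and Ahr-KO 2 the Fli1 to Erg ratio ranged over 1.19 to 1.22 in Ahr-KO SuHx lung, against 0.620 to 0.764 in normoxia lung, and the Sox17 to Sox7 ratio over 2.04 to 2.29 in Ahr-KO SuHx lung, against 0.919 to 1.32 in normoxia lung.

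**Figure D3:**
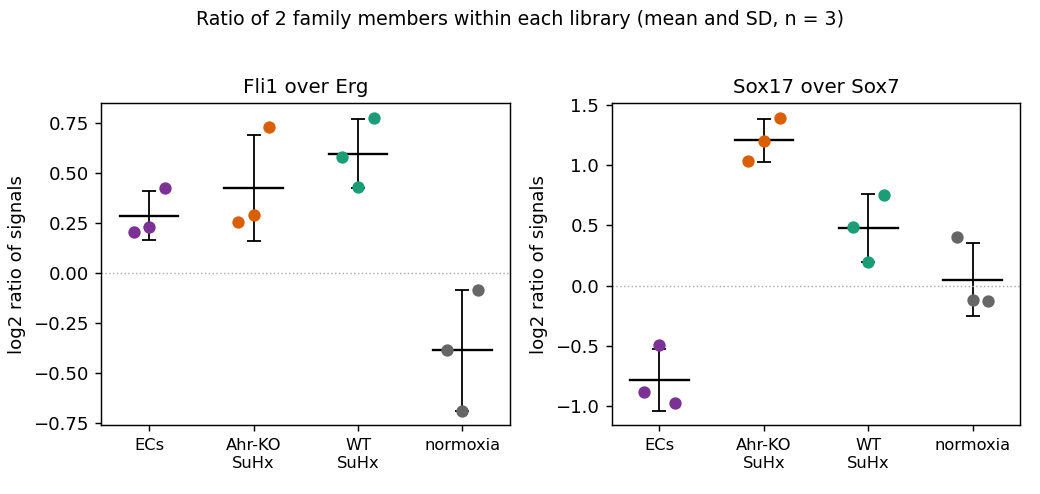
Ratio of 2 family members within a library (y axis, log2 scale), for the pairs Fli1 to Erg and Sox17 to Sox7, with points for the 3 libraries of a group, lines at the mean and error bars of 1 SD, for ECs, Ahr-KO SuHx, WT SuHx and normoxia lung. The mean log2 Sox17 to Sox7 ratio was 1.21 in Ahr-KO SuHx lung, 0.48 in WT SuHx lung and 0.05 in normoxia lung.

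Under SuHx, 0 of the 9 factors passed the test between Ahr-KO and WT lung, where 0.499% of all tested rows did, 0.197% as higher and 0.302% as lower. Sox17 came nearest: it was higher in all 3 Ahr-KO libraries than in any WT library. Gata2 also had groups that did not overlap, with Ahr-KO higher. That pattern, 2 of 9 factors with every Ahr-KO library higher, was seen for 11.7% of all rows. By limma, 2 of the 9 had an unadjusted p under 0.05. The median log2 fold change of the 9 was 0.04, against 0.02 over all rows.

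Sox17 held 2241, 2110.3 and 1659 signal units in Ahr-KO SuHx lung, against 1095, 1519 and 1063 in WT SuHx lung. The difference was 0.72 ± 0.19 on the log2 scale, or 1.64-fold, with a 95% interval of 0.29 to 1.15. It did not survive the adjustment over all rows (unadjusted p = 0.00426, adjusted p = 0.164), and the 9 fits that left out 1 library each gave 0.62 to 0.88. Gata2 held 2015, 1957 and 1865 in Ahr-KO SuHx lung, against 1554, 1444 and 1799 in WT SuHx lung. The difference of 0.29 ± 0.09 was small, with a 95% interval of 0.08 to 0.50 and an adjusted p of 0.238. Sox18 held 1146, 1013 and 1001 in Ahr-KO SuHx lung, against 673, 1022 and 720.1 in WT SuHx lung. WT SuHx library 1 lay among the Ahr-KO libraries, and the interval of the difference ran between -0.12 and 0.94.

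For the other 6 factors the genotypes overlapped, and the intervals say how large a difference these libraries could hide. Erg held 1634, 1435 and 973 signal units in Ahr-KO SuHx lung, against 1188, 1479.6 and 1185 in WT SuHx lung, with a 95% interval of -0.37 to 0.46 on the log2 scale. Sox7 held 1097, 921 and 633 in Ahr-KO SuHx lung, against 783, 1328 and 631 in WT SuHx lung, with an interval of -0.62 to 0.60. Neither genotype was set apart for either gene. Fli1 ranged over 1615 to 1947 in Ahr-KO SuHx lung and 1776 to 2026 in WT SuHx lung, and Ets1 over 6415 to 9747 in Ahr-KO SuHx lung and 7808 to 11042 in WT SuHx lung. Nr2f2 ranged over 1655 to 1827 in Ahr-KO SuHx lung and 1777 to 1902 in WT SuHx lung, and Foxf1 over 2345 to 3479 in Ahr-KO SuHx lung and 2343 to 2838 in WT SuHx lung. All of these ranges overlapped. The intervals were -0.45 to 0.20 for Fli1, -0.68 to 0.41 for Ets1, -0.38 to 0.22 for Nr2f2 and -0.13 to 0.61 for Foxf1. Ahr-KO library 2, with the most cardiac RNA, was the lowest of its group for 8 of the 9 factors and the highest for Nr2f2. That library also had the highest airway marker sum of the Ahr-KO group, 227707, against 156177 and 150925. Normoxia library 2, also rich in cardiac RNA, was the highest of its group for 6 of the 9 and the lowest for 1. The part of cardiac or airway RNA in these levels was not tested. Without both libraries, 0 factors were called and the signs of Ets1 and Sox7 turned, to 0.04 and 0.21.

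Relative to the pan-endothelial mean, which was 12.23 ± 0.12 in Ahr-KO SuHx lung and 12.27 ± 0.05 in WT SuHx lung, Sox17 differed by 0.76 and Gata2 by 0.33. For both factors, every Ahr-KO library was above every WT library, as for 13% of all rows on that scale (exact two-sided permutation p = 0.1, the smallest possible). Around these factors, 4 of the 176 list genes were called between genotypes by limma, all higher in Ahr-KO lung. Of all tested rows, 0.197% were called higher and 0.302% lower. The lists were drawn up with earlier results of the same data known, so this count is not independent evidence. Dll4 held 1052, 1002 and 715 signal units in Ahr-KO SuHx lung, against 385, 424 and 344 in WT SuHx lung (1.25 ± 0.16, adjusted p = 0.0118). Efnb2 held 3102, 3246 and 1941 in Ahr-KO SuHx lung, against 1228, 1239.5 and 1162 in WT SuHx lung (1.16 ± 0.19, adjusted p = 0.0380). Gja4, the gap junction protein of arterial endothelium, differed by 0.93 ± 0.10 (adjusted p = 0.00354), and Ccl21, a chemokine of lymphatic endothelium, by 1.41 ± 0.15 (adjusted p = 0.00348). All 4 had every Ahr-KO library above every WT library, as 11.7% of all tested rows did. By limma all 4 were also called without Ahr-KO 2 and normoxia 2, with adjusted p between 0.000618 for Efnb2 and 0.0109 for Ccl21. Hey1 was then called too, at 1.40 (adjusted p = 0.0436), against 1.19 (adjusted p = 0.0549) with all 9 lung libraries. Cardiac marker RNA moved with genotype as well: by limma 0 of 9 markers were called, 6 had an unadjusted p under 0.05, and without those 2 libraries 5 of 8 tested were called, all higher in Ahr-KO lung. Its part in the differences between genotypes was not tested. Between genotypes limma called 0 of the 14 other ETS factors, 0 of the 10 other SOX factors, 0 of the 10 GATA factors and partners, 0 of the 10 FOX and mesenchyme factors and 0 of the 12 further endothelial factors. At an unadjusted p under 0.05 the counts in these lists were 2, 2, 4, 1 and 0 in the same order.

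**Figure D4:**
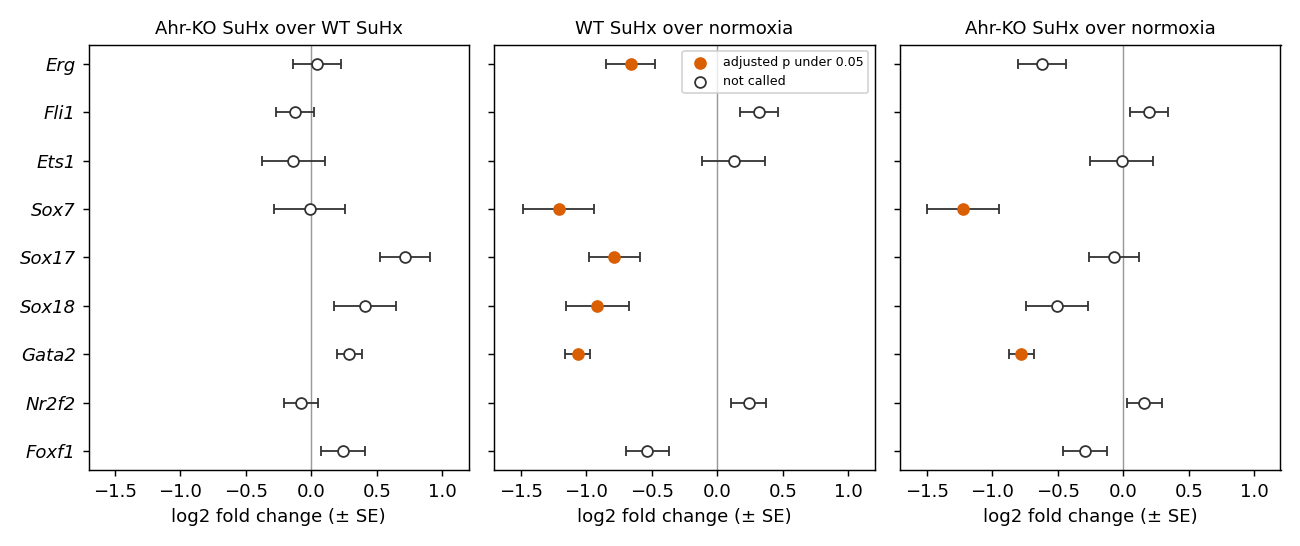
Log2 fold change (x axis, error bars of 1 SE) of each factor for Ahr-KO SuHx against WT SuHx lung, WT SuHx against normoxia lung and Ahr-KO SuHx against normoxia lung, filled where the adjusted p was under 0.05. Gata2 and Sox7 are filled in both comparisons with normoxia lung, and no factor is filled between genotypes.

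Against normoxia lung, 2 of the 9 factors had fallen in Ahr-KO SuHx lung, Sox7 and Gata2, and 0 had risen, while 9.75% of all rows were called, 3.8% as lower and 5.95% as higher. Sox7 differed by -1.22 ± 0.27 (2.33-fold, adjusted p = 0.0227) and Gata2 by -0.78 ± 0.09 (1.71-fold, adjusted p = 0.00104). Erg was 1.53-fold lower, with groups that did not overlap, and did not pass (-0.62 ± 0.18, adjusted p = 0.0663). Groups apart with Ahr-KO lower were seen for 3 of the 9 factors and for 17.9% of all rows. Sox17, which fell by 0.78 in WT SuHx lung, differed by -0.07 ± 0.19 in Ahr-KO SuHx lung (adjusted p = 0.858). Sox18 differed by -0.50 ± 0.24 and Foxf1 by -0.29 ± 0.17, and their groups overlapped, as did those of Fli1 at 0.19, Ets1 at -0.01 and Nr2f2 at 0.16. These values share the normoxia libraries with those of WT SuHx lung, and the difference between the genotypes is the one tested above. In this comparison too, Gata2 alone was called without normoxia library 0, 1 or 2 and without Ahr-KO library 1 or 2. It was 1 factor again with both cardiac-rich libraries left out. Relative to the pan-endothelial mean, 4 factors were lower in every Ahr-KO library than in any normoxia library, as were 13.3% of all rows: Sox7 by -1.22, Gata2 by -0.78, Erg by -0.62 and Sox18 by -0.51 (exact two-sided permutation p = 0.1 each, the smallest possible).

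Of the 22 endothelial genes with ETS or SOXF control, 2 rose and 8 fell in Ahr-KO SuHx lung against normoxia lung. Of all tested rows, limma called 5.95% as higher and 3.8% as lower in this comparison. Dll4 fell by 2.07 on the log2 scale, Plvap, the diaphragm protein of fenestrated endothelium, by 1.73 and Clec14a by 1.55, while Emcn rose by 1.13. Of the 11 arterial, venous and lymphatic genes, 2 rose, Prox1 at 1.23 and Heyl at 0.68, and 2 fell, Efnb2 at -1.21 and Hey1 at -0.84. Prox1, the master factor of lymphatic endothelium, held 121, 132 and 134 signal units in Ahr-KO SuHx lung, against 57.3, 39.2 and 70.6 in normoxia lung. Of the 7 lymphatic markers, 3 rose, Ccl21 at 1.36, Prox1 at 1.23 and Reln at 0.87, and 1 fell, Lyve1 at -1.31 in a merged row; 6 of the 7 had an unadjusted p under 0.05 and the median was 0.70. Their summed signal was 20389.7 to 21072 in Ahr-KO SuHx lung and 20597 to 29237 in normoxia lung. Most of that sum came from Pdpn and the merged Lyve1 row, so it says little about the markers that rose. Pdpn held 9169, 8700 and 8180 in Ahr-KO SuHx lung, against 12029, 13458 and 8965 in normoxia lung, and 4204, 2380 and 3269 in ECs. Without Ahr-KO 2 and normoxia 2, 1 lymphatic marker rose and 2 fell, Prox1 not among those that rose (1.39, adjusted p = 0.0760), and of the 22 endothelial genes 2 rose and 6 fell. Of the 11 arterial, venous and lymphatic genes 1 then rose and 1 fell.

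Isolated ECs held more RNA of 8 of the 9 factors than normoxia lung and less of the ninth, Nr2f2, and all 9 passed the test. The fit over 6 libraries called 56.2% of all 15186 tested rows, 26.1% as higher and 30.1% as lower, so a call by itself says little here. All 9 factors also had groups that did not overlap, as 30.4% of all rows did with ECs higher and 35.1% with ECs lower. Sox7 had the largest difference, with 10538, 8132 and 9904 signal units in ECs, against 1960.2, 1840.1 and 2252 in normoxia lung (2.24 ± 0.13, 4.71-fold, adjusted p = 3.14e-05). Fli1 held 5583, 5482 and 5931 in ECs, against 1375, 1369 and 1956 in normoxia lung (1.87 ± 0.15, 3.67-fold, adjusted p = 8.10e-05). Foxf1 held 10741, 9709 and 9602 in ECs, against 3352, 3591 and 4314 in normoxia lung (1.42 ± 0.12, 2.68-fold). Each was far above the spread of its groups, as was Nr2f2 on the other side. Nr2f2 held 808, 648 and 659 in ECs, against 1562, 1284 and 1921 in normoxia lung (-1.16 ± 0.16, adjusted p = 0.000956). Erg averaged 4649.5 ± 220.4 in ECs and 2029 ± 209 in normoxia lung (SD, n = 3 each). Sox17 averaged 5516 ± 416 in ECs and 2115 ± 453 in normoxia lung, and Gata2 averaged 8459 ± 1459.6 in ECs and 3333 ± 110.4 in normoxia lung. Ets1 and Sox18 had the smallest differences, 1.13 ± 0.22 and 0.90 ± 0.26, and neither passed after quantile normalization of the libraries (Ets1 at 0.65, adjusted p = 0.0628; Sox18 at 0.71, adjusted p = 0.0686).

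The EC label was checked against markers by limma, which called 26.1% of all tested rows as higher and 30.1% as lower. Of 10 pan-endothelial markers, 9 rose in ECs, such as Esam at 1.92 and Cldn5 at 1.84, and their mean was 13.83 ± 0.11 in ECs and 12.22 ± 0.11 in normoxia lung on the log2 scale. The last of the 10, Robo4, has its reads split between its own row and a merged row. All 10 alveolar epithelial markers fell, though they still summed to 118725 to 265315 signal units in ECs, against 539596 to 792907 in normoxia lung. Of 12 mesenchymal and pericyte markers, 9 fell, among them Pdgfra at -5.97 and Dcn at -3.95, and 1 rose. B cell markers rose, all 6 of them, and summed to 7493 to 8808 in ECs, against 1018 to 3094 in normoxia lung. Of 12 T and NK cell markers, 5 rose and 2 fell. They summed to 5474, 5963 and 13118 in EC libraries 0, 1 and 2, against 3068 to 5136 in normoxia lung. Lymphocytes also make Ets1 and Fli1; their part in the levels of those genes in the ECs was not tested. Lymphatic endothelial markers summed to 53956 to 58905 in ECs, against 20597 to 29237 in normoxia lung, where Pdpn and the merged Lyve1 row gave most of the sum. By limma 6 of those 7 markers rose in ECs and 1 fell. Nr2f2, which lymphatic endothelium is known to make, was lower in the ECs.

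Set against the pan-endothelial mean, which was 1.60 higher in ECs, most factors no longer stood apart. Sox7 was 0.63 higher relative to the markers in ECs than in normoxia lung, Erg was lower by -0.40 and Nr2f2 by -2.76, with groups that did not overlap (exact two-sided permutation p = 0.1 each, the smallest possible). On that scale 2.77% of all rows lay higher in every EC library and 85.1% lower. The groups of the other 6 overlapped; with Tek left out of the markers 5 factors stood apart in place of 3. The relatives were counted by limma calls, beside 26.1% of all tested rows called higher and 30.1% called lower in ECs. Of 14 other ETS factors, 10 rose and 3 fell, with Elf1 at 1.97 and Elf2 at 0.99 against Etv1 at -3.48 and Etv4 at -4.09. Of 10 GATA factors and partners 3 rose, such as Tal1 at 1.13 and Ldb1 at 1.05, and 2 fell, Gata5 at -4.15 and Gata6 at -0.96. Of 10 other SOX factors 3 rose and 3 fell, with Sox13 at 1.25 against Sox2, a factor of airway epithelium, at -4.33. The counts of the GATA and SOX lists were near the shares of all rows. Of the factors listed with Foxf1, the mesenchymal factors Tcf21, Tbx4 and Tbx5 went the other way from it, at -5.04, -3.17 and -3.13. Foxo1 rose by 1.36, and Foxl1, in a row merged with Foxc2, by 1.71. In all, 4 of those 10 rose and 5 fell. Of 12 further endothelial factors 9 rose, with Klf4, a flow-responsive factor, at 3.29 and Tcf4 at 1.58, and 2 fell, Mecom at -1.45 and Meox2 at -4.40.

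Over the 9 lung libraries, the profiles of the 9 factors were compared with each other and with those of other rows. The measure is the root mean square difference of the centred log2 values, so 0 means the same pattern, and it rests on libraries that share their groups. Of the 36 pairs, Fli1 and Nr2f2 were the most alike at 0.13, followed by Erg and Foxf1 at 0.17. Family did not set the order: Erg and Fli1 were 0.48 apart and Sox7 and Sox17 were 0.52 apart, with Sox17 and Sox18 at 0.29. The least alike pair was Fli1 and Sox7 at 0.76. Most of the nearest rows named next changed when all 12 libraries were used or both cardiac-rich libraries were left out. Among 11386 rows with a mean signal of at least 50, the closest to Erg were Enpp4 at 0.08, Cd27 at 0.09 and the ETS factor Elf4 at 0.10. Closest to Foxf1 were Fam49a at 0.08, Ptk2b at 0.09 and Ssh2 at 0.10, and closest to Gata2 were Echdc3 at 0.13, FAM120C and Cyp2d4 at 0.14. Sox7 had no near neighbour, with Ptprb, an endothelial phosphatase, Slc6a4, the serotonin transporter, and Acadsb all at 0.21. Sox17 was closest to Plagl2 at 0.13, Piezo2 and Dnm1 at 0.14, and Sox18 to Smad7, an inhibitor of TGF-beta signalling, at 0.15, Arl15 at 0.16 and Ehd4 at 0.18. Fli1 was closest to Galnt2 at 0.08, Pwp1 and Actr3 at 0.09, Ets1 to Cd84 at 0.11, Plxnd1 at 0.12 and Ifnar2 at 0.13, and Nr2f2 to Mipep at 0.07, Alg6 and Ttll1 at 0.08.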

How the data were processed

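RNA sequencing of 12 libraries was analysed from 1 deposited table of 19230 gene rows. The authors deposited non-whole values of a signal that, read from the values, are estimated counts divided by 1 factor per library: 88.3 to 90.7% of values under 200 reads came within 0.05 of a whole read. The submitters' processing notes name FastQC and rn6 without a role; the aligner, counter and strand setting are unnamed there and in the labels. Columns name a group and a suffix 0 to 2, so libraries could be tied to groups but not to single samples. Since the values are not counts, limma 3.58.1 (R 4.3.3; eBayes with trend, two-sided) was run on log2(signal + 1) of rows with a mean signal of at least 1, in 1 fit over the 9 lung libraries and 1 over ECs and normoxia lung, with Benjamini-Hochberg adjustment over all rows; fold changes on this scale understate those of low genes. The procedure was also run on simulated data with independent normal noise. Those data hold no differences shared across a library, such as cardiac RNA, so the run cannot show how the procedure handles them. Differences relative to 10 pan-endothelial markers (Robo4 as the sum of its rows) used an exact permutation test. Members and 18 gene lists were chosen with earlier results of these data known; the text names all 9 members, up to 4 called genes per list with the smallest adjusted p or otherwise the 2 of highest signal, and the 3 nearest profiles per member. Of 176 list genes all had a row, 15 of them merged with another gene. Alternatives covered the trend, quantile normalization, filters, pseudocount, libraries fitted, a block and leaving out each library.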

Additional observations from a re-analysis of the deposited data

How the results depend on the processing

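Of 603 alternative values of the 36 member log2 fold changes, 534 kept their direction and side of the threshold, 36 lost the call, 11 gained it and 22 turned sign, none of these from a called value. In WT SuHx against normoxia lung, the 5 called members became 2 in limma without trend and 1 to 6 with 1 library left out; Gata2 was called throughout. In Ahr-KO SuHx against normoxia lung, the 2 became 1 with both cardiac-rich libraries left out, an alternative chosen after seeing the data, and 1 to 3 with 1 library left out. Between genotypes, 0 were called in all fits run; in ECs, 7 to 9 were. Relative to the markers, ECs had 5 members apart in place of 3 without Tek, also an alternative chosen after seeing the data. Of the 27 nearest profiles, 5 were shared when all 12 libraries were used and 3 with both cardiac-rich libraries left out. Signs turned for members that were not called. Quantile normalization gave 0.026 for Ets1 and 0.0094 for Sox17 in Ahr-KO SuHx against normoxia lung. Leaving out both cardiac-rich libraries gave 0.31 for Ets1, 0.055 for Sox17 and 0.00068 for Foxf1 there, and 0.043 for Ets1 and 0.21 for Sox7 between genotypes. With 1 library left out, Ets1 ranged over -0.14 to 0.27 in WT SuHx against normoxia lung; between genotypes Erg ranged over -0.11 to 0.26, Ets1 over -0.26 to 0.043 and Sox7 over -0.24 to 0.29; in Ahr-KO SuHx against normoxia lung Ets1 ranged over -0.27 to 0.17 and Sox17 over -0.22 to 0.090. The causes were not tested. Over the whole table, 2052 calls in WT SuHx against normoxia lung became 862 to 2380 with 1 library left out, 76 between genotypes became 32 to 100, 47 without trend and 126 with all 12 libraries in 1 fit, and 1485 in Ahr-KO SuHx against normoxia lung became 721 to 1882. Whether the column suffixes pair the libraries is not settled: same-suffix deviations correlated at -0.0308 to 0.121 for suffix 0, 0.119 to 0.19 for suffix 1 and 0.187 to 0.292 for suffix 2, 5 of 9 lung libraries correlated best with their own suffix, and the labels tie no number to an animal or batch. With the suffix as a replicate block, 5 members were called in WT SuHx against normoxia lung, 0 between genotypes, 3 in Ahr-KO SuHx against normoxia lung (Erg added, adjusted p = 0.0455) and 9 in ECs, and the whole-table count in WT SuHx against normoxia lung was 3385. With 3 libraries a group, differences under the intervals given for each member could not be seen.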

Other observations

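Fendrr, a long noncoding RNA whose entry neighbours Foxf1 in the rat annotation GRCr8, was looked up after its values were seen. It held 2859, 3160 and 3037 signal units in WT SuHx lung, against 5089, 5936 and 5057 in normoxia lung, a log2 fold change of -0.83 ± 0.11 (limma, adjusted p = 0.00165), where Foxf1 changed by -0.53 and did not pass. In Ahr-KO SuHx lung it held 3660.1, 3464 and 2981, which differed by -0.67 ± 0.11 against normoxia lung (adjusted p = 0.00447) and by 0.15 ± 0.11 against WT SuHx lung (adjusted p = 0.530). In ECs it held 11041, 11923 and 8516, a difference of 0.96 ± 0.15 against normoxia lung (adjusted p = 0.00128). Without normoxia 2 and Ahr-KO 2 the changes against normoxia lung were -0.87 in WT SuHx lung (adjusted p = 0.00327) and -0.63 in Ahr-KO SuHx lung (adjusted p = 0.0163). The labels do not say if counting used strand, and whether reads pass between the neighbours was not tested.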
